A study of Mus musculus with 16 samples.

Results

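The collagen genes were taken as the rows of the deposited count table whose mouse symbol is Col, a number, the letter a and a number, with more than 10 reads in total over the 16 libraries. The rule kept 43 of the 44 such symbols found, among 46078 genes in the table. Col6a4, with 6 reads, was the symbol left out. Members were chosen by name and read total, not by any difference between groups.

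The tissue was spinal cord lesion of C57BL/6 mice aged 8 to 12 weeks. All mice, controls included, received lysolecithin, a lipid that strips myelin from axons, and the lesion was cut from frozen cord by laser microdissection. Exercise mice had a free running wheel and control mice a locked wheel, and lesions were collected at day 5 or day 10. There were 4 libraries in each of the 4 groups: day 5 control (replicates 1, 2, 5 and 6), day 5 exercise (1, 2, 7 and 12), day 10 control (2, 3, 4 and 5) and day 10 exercise (13, 17, 18 and 19). No uninjured cord was part of these groups, and both wheel groups were recovering from the same toxin. Nothing in the labels ties a library to its own mouse. The p-values given here therefore reflect library-to-library spread, which may be partly technical.

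Collagens are triple helices of polypeptide chains, secreted into the extracellular matrix and modified on the way by hydroxylases, chaperones and proteases. Fibrillar collagens form rope-like fibres, type IV collagens form the sheet of basement membranes around vessels and along the glial border, and FACIT collagens (fibril-associated collagens with interrupted triple helices) decorate fibrils. In spinal cord, fibrillar collagen is normally found mainly in the meninges and around larger vessels, and fibroblasts and pericyte-like cells are known to lay it down after injury. In bulk tissue, fewer cells of a type and less RNA per cell cannot be told apart.

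RefSeq promoter windows (GRCm38.p6, 250 bases before to 50 after the start, 5′ to 3′ on the gene's own strand) were found for 34 of the 43 collagen genes, and 6 are printed because the results turn on them. Col1a2 and Col3a1 were the most abundant collagens, Col4a1 and Col4a2 are read in opposite directions from overlapping windows, and Col15a1 and Col27a1 passed the test between days in both wheel groups. Capitals mark the letters CCAAT (bound by the factor NF-Y), the GC box letters GGGCGG and the TATA box letters TATAAA, searched on both strands, so a match on the opposite strand appears as its reverse complement. These matches do not overlap one another in the 6 windows.
Col1a2, chr6:4505368-4505667, plus strand: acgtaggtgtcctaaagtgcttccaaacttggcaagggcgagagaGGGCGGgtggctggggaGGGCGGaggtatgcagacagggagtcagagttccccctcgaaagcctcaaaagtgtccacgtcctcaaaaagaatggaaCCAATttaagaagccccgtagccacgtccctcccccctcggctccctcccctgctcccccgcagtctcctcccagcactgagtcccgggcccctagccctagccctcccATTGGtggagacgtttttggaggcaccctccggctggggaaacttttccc
Col3a1, chr1:45311288-45311587, plus strand: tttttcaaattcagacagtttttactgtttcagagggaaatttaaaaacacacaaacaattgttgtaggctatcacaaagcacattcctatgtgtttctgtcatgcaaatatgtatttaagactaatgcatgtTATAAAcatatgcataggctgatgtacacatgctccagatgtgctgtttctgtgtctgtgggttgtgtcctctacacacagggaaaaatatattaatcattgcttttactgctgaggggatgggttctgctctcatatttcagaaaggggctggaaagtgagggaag
Col4a1, chr8:11312777-11313076, minus strand: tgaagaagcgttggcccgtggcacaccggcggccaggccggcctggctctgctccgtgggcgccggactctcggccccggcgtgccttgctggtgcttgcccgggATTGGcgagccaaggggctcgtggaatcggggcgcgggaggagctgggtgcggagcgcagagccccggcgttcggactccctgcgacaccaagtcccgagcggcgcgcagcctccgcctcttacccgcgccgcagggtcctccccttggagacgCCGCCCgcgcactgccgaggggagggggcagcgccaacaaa
Col4a2, chr8:11312555-11312854, plus strand: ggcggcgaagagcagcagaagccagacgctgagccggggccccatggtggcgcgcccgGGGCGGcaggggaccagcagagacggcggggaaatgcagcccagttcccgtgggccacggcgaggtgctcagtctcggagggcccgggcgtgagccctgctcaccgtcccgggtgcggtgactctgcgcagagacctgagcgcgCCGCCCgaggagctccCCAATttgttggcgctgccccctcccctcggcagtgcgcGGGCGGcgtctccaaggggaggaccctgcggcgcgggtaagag
Col15a1, chr4:47207762-47208061, plus strand: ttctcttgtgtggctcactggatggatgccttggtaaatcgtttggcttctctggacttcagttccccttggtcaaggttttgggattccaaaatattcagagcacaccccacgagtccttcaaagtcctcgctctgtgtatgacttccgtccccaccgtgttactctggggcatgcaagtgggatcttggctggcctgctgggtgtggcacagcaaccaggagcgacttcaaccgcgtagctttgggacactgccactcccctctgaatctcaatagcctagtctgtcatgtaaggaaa
Col27a1, chr4:63215162-63215461, plus strand: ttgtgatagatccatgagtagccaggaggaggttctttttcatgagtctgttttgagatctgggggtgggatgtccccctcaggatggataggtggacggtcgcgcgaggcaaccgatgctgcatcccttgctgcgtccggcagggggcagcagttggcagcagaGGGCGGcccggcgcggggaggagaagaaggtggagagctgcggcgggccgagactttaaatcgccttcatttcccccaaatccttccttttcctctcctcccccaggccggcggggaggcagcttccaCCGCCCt
The Col1a2 window held CCAAT letters at -109 to -105 from the start and, on the opposite strand, at 0 to 4. It held GC box letters at -205 to -200 and -188 to -183. The Col3a1 window held TATA box letters at -117 to -112. Whether any of these matches is a working site was not tested. The 34 collagens have 37 windows, of which 12 held CCAAT against 37.4% of all 32851 windows of the same length. GGGCGG was in 22 of the 37 against 35.7% of all windows, and TATAAA in 5 of the 37 against 13.6%. The Col15a1 window held none of these letters, which says only that they are absent from this window. Col4a1 and Col4a2, the chains of the ubiquitous basement membrane collagen, start 21 bases apart in overlapping opposite transcripts on chromosome 8. Their windows share 78 bases, among them a GGGCGG match that is marked and counted in both. Col4a3 and Col4a4 start 72 bases apart on chromosome 1, and Col4a5 and Col4a6 start 1309 bases apart on chromosome X.

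The libraries held 8.13 to 13.93 M counted reads, and collagen reads were 0.0851% of the total in the lowest library and 0.559% in the highest. Levels below are read counts scaled to library size (CPM, per M reads) and then by TMM, a size factor that aligns the bulk of genes across libraries. Of the 43 genes, 38 passed the filter on low counts and entered the test. Col13a1, Col19a1, Col22a1, Col24a1 and Col25a1 did not, with 108, 13, 105, 27 and 78 reads over all libraries.

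Collagen RNA in the lesion was dominated by fibrillar chains. Col1a2, a chain of type I collagen, held 46.5% of all collagen reads, and Col3a1, the type III collagen found with it in loose connective tissue, held 19.7%. Per kilobase of gene length, the mean over 16 libraries was 108.6 CPM for Col1a2 and 56.8 for Col3a1. Next in order were Col4a1 at 21.4, Col1a1 at 18.1 and Col8a1, a chain of the network collagen of vessel and membrane matrices, at 10.8 CPM per kilobase. Ranges over libraries were wide and overlapped between Col4a1 (6.95 to 33.7) and Col1a1 (4.72 to 42.5 CPM per kilobase), so their order is not set beyond their spread. The length used is the deposited one, which for Col1a2 (12136 bases) is more than its longest coding transcript (5348 bases). Its level per kilobase is thus lower than that transcript's length would give. The same holds for Col3a1 (9816 against 5564 bases), and less so for Col1a1 (6563 against 5930) and Col4a1 (6818 against 6615). The excess is uneven between genes, so orders per kilobase, here and below, depend on the length used.

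Lower fibrillar members were the type V chains, which help start fibrils, and type XI chains. Col5a1 averaged 8.41, Col5a2 5.47 and Col5a3 2.40 CPM per kilobase. Col11a1 averaged 2.40 and Col11a2 0.767, while the cartilage collagen Col2a1 stood at 0.848 and Col27a1 at 0.980 CPM per kilobase. In the basement membrane class, Col4a5 averaged 9.31, Col4a2 6.08 and Col4a6 2.13, and the pair Col4a4 and Col4a3, known from kidney and other specialised membranes, stood at 0.217 and 0.0857 CPM per kilobase.

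The multiplexins, basement membrane proteoglycan collagens, were at similar levels, Col15a1 at 7.83 and Col18a1 at 7.75 CPM per kilobase. Among FACIT members, Col16a1 led with 7.02 and Col20a1 followed with 4.32, ahead of Col9a3 (2.53), Col14a1 (2.39) and Col12a1 (1.97), with Col9a2 (0.465) and Col9a1 (0.326) far lower. The beaded filament chains of type VI collagen were led by Col6a1 at 5.40 and Col6a3 at 2.58, above Col6a2 (0.895), Col6a5 (0.443) and Col6a6 (0.0631). Of the rest, Col23a1, a membrane-spanning collagen, stood at 1.33 and Col7a1, which anchors skin basement membrane, at 0.568. The other network chains, Col8a2 and Col10a1, had 0.864 and 0.376, and Col28a1, Col26a1 and Col17a1 had 0.210, 0.120 and 0.0775 CPM per kilobase.

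**Figure D1:**
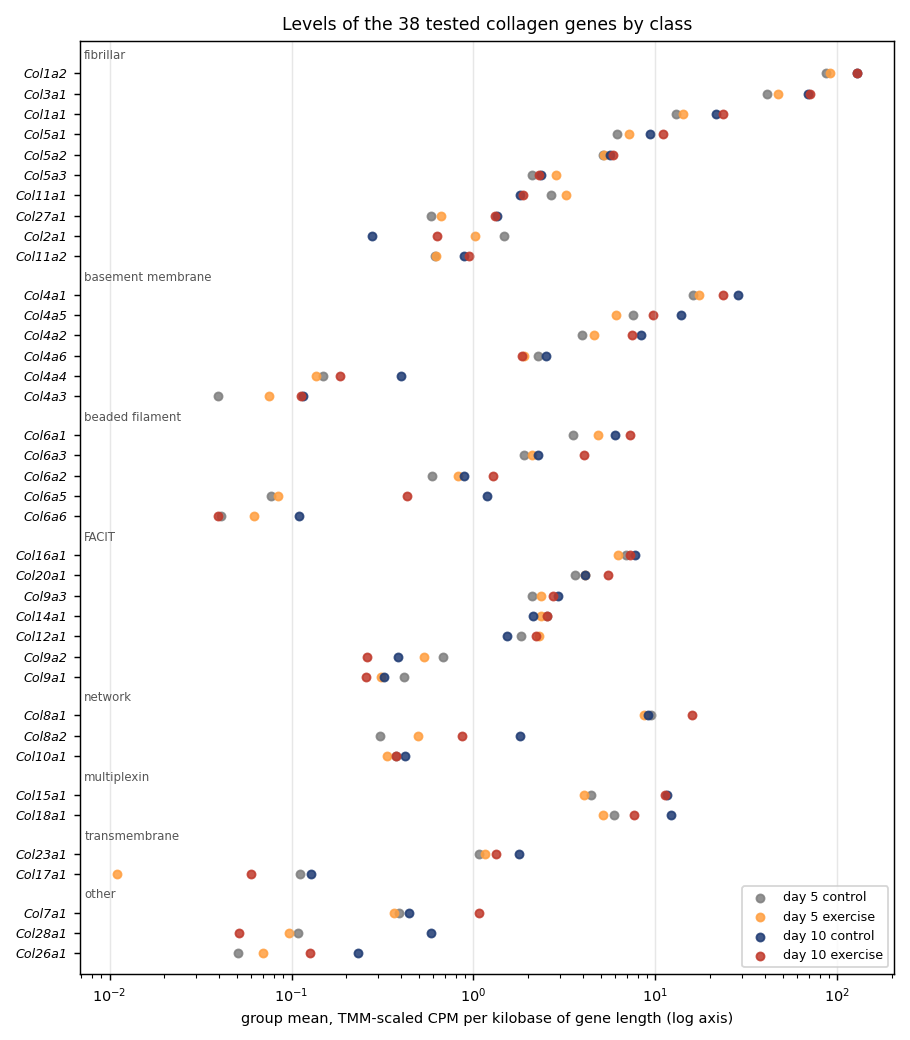
Group means of the 38 tested collagen genes, in TMM-scaled CPM per kilobase of gene length on a log axis, with 1 point per group and genes ordered by class. Col1a2 and Col3a1 lie above every other collagen in each of the 4 groups.

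Libraries of the same group differed widely in collagen. Among 21 collagens with a mean of at least 10 CPM, the highest library exceeded the lowest by a median of 3.38-fold in day 5 control, against 1.33-fold for all 8953 genes at that level. The medians were 1.84-fold in day 5 exercise (1.33-fold for all genes), 1.49-fold in day 10 control (1.32-fold) and 2.95-fold in day 10 exercise (1.45-fold). Collagens moved together across libraries, so these 21 genes are not independent measurements of this spread.

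Day 5 control replicate 6 was the lowest of its group for 19 of the 21 collagens, a position it held for 28.3% of all genes at that level. In day 10 exercise, replicates 18 and 19 both lay above replicates 13 and 17 for 21 of 21 collagens, against 14.6% of all genes. Day 5 control replicates 1 and 2 lay above 5 and 6 for 18 of 21, against 21.9% of genes.

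Col1a2 stood at 1482, 1502, 879 and 323 CPM in day 5 control replicates 1, 2, 5 and 6, and at 1029, 1009, 1582 and 807 in day 5 exercise replicates 1, 2, 7 and 12. At day 10 it stood at 1880, 1427, 1441 and 1471 in control replicates 2, 3, 4 and 5, and at 675, 881, 2550 and 2151 in exercise replicates 13, 17, 18 and 19. Control libraries at day 10 thus sat inside a gap in the exercise libraries, with 2 below all of them and 2 above. Col3a1 showed the same split in day 10 exercise, with 388, 357, 1126 and 905 CPM against 743, 670, 631 and 649 in control. At day 5 Col3a1 was 581, 585, 308 and 131 in control and 430, 354, 671 and 397 CPM in exercise.

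Col4a1 was 179, 150, 65.1 and 47.4 CPM in day 5 control and 101, 109, 169 and 93.0 in day 5 exercise. Its day 10 levels were 229, 200, 179 and 171 in control and 93.5, 94.3, 230 and 227 CPM in exercise. Replicates 5 and 6 of day 5 control and 13 and 17 of day 10 exercise were again the low ones.

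Dcn, a proteoglycan of fibroblasts that binds collagen fibrils, ran with the collagens, at 193, 189, 97.8 and 58.1 CPM in day 5 control and 97.0, 97.2, 268 and 239 in day 10 exercise. The summed level of 14 fibroblast and meningeal markers ran from 359 to 1015 CPM in day 5 control and from 536 to 692 in day 5 exercise. It ran from 2065 to 2919 in day 10 control, where Igf2 made up most of it at 1182 to 1802 CPM, and from 582 to 1199 in day 10 exercise. The 11 endothelial markers summed to 247 to 303, 260 to 322, 298 to 322 and 224 to 298 CPM in the same order of groups. Cartilage and bone markers summed to at most 17.6 CPM in any library with Ibsp at 0, and skeletal muscle markers to at most 1.51 with Myh4 at 0. By comparison, 7 oligodendrocyte markers summed to 10070 to 25810 and 7 astrocyte markers to 3165 to 7673 CPM. Collagens known from cartilage were themselves low, Col2a1 at 1.15 to 14.7 and Col27a1 at 6.32 to 21.7 CPM. These are levels like that of the cartilage and bone sum, and any part of such tissue in them was not tested. The part of fibroblast content, or of what the laser took up, in the collagen spread was not tested.

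**Figure D2:**
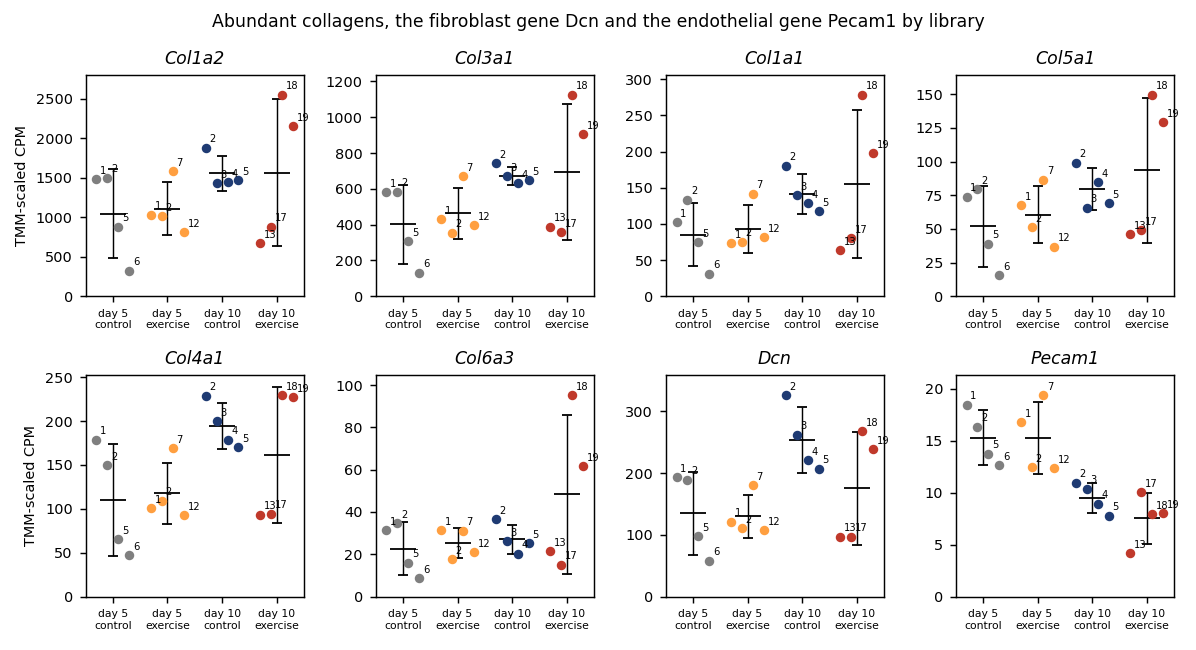
TMM-scaled CPM of 6 abundant collagens, the fibroblast gene Dcn and the endothelial gene Pecam1 in each of the 16 libraries, with replicate numbers beside the points, the group mean as a bar and the SD as whiskers. Replicates 18 and 19 of day 10 exercise lie far above 13 and 17 for each collagen and for Dcn, and day 5 control replicate 6 is the lowest of its group in each panel, whereas Pecam1 does not split the day 10 exercise libraries this way.

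The first comparison was day 10 against day 5 in control mice, the course of the lesion with the wheel locked. Of 38 tested collagens, 7 rose and 1 fell past an adjusted p of 0.05, which is 21.1% of them, against 12.3% of all genes tested. The count was 5 without day 5 control replicate 2, day 10 control replicate 2 or day 10 control replicate 5, and 5 with no filter on low counts. By direction the background was 5.66% higher and 6.64% lower. Log2 fold changes were above 0 for 31 of the 38, with a median of 0.58 against 0.01 for all 15096 genes, of which 51.2% were above 0. The 2 groups did not overlap for 12 collagens that were higher and 1 that was lower at day 10, against 9.33% and 10.7% of all genes. Because abundant collagens share their library-to-library order, these counts are not sums of independent genes. All tests below are edgeR's quasi-likelihood test with Benjamini-Hochberg adjustment over all genes.

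Among fibrillar collagens, Col27a1 rose and Col2a1 fell. Col27a1, a fibrillar collagen known from cartilage, was 6.997, 8.50, 8.73 and 6.32 CPM at day 5 and 20.1, 14.4, 18.5 and 17.3 at day 10 in control. The groups did not overlap, and the log2 fold change was 1.20 ± 0.19 (SE, edgeR adjusted p = 0.00063), a 2.30-fold rise. Col2a1 was 6.44, 14.7, 7.66 and 6.47 CPM at day 5 and 1.97, 1.82, 1.68 and 1.15 at day 10. Every day 10 control library was below every day 5 one, and Col2a1 fell by 2.40 on the log2 scale (SE 0.35, edgeR adjusted p = 0.000293), or 5.29-fold.

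The abundant fibrillar chains did not pass. Col1a2 had a mean of 1046 ± 562 CPM (SD, n = 4) in day 5 control and 1555 ± 218 in day 10 control. Its log2 fold change was 0.57 (95% interval -0.37 to 1.51, edgeR adjusted p = 0.444). For Col3a1 the log2 fold change was 0.75 (95% interval -0.15 to 1.65, edgeR adjusted p = 0.276), and for Col1a1 0.73 (95% interval -0.23 to 1.69, edgeR adjusted p = 0.32). Each of these intervals holds 0, and also holds rises of more than 1 on the log2 scale.

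In the basement membrane class all 6 members had log2 fold changes above 0, with a median of 0.99, and 2 passed the test, Col4a2 and Col4a4. Col4a2 was 41.2, 29.6, 18.6 and 14.5 CPM at day 5 and 65.6, 55.6, 51.9 and 47.7 at day 10 in control. It rose 2.13-fold with no overlap (log2 1.09 ± 0.34, SE, edgeR adjusted p = 0.0462). That call was lost when any 1 library other than day 5 control replicate 1 was left out, and with no filter on low counts. The highest edgeR adjusted p among these settings was 0.13. Col4a1 itself had a log2 fold change of 0.82 (95% interval -0.02 to 1.66, edgeR adjusted p = 0.198).

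Col4a4 was 0.875, 2.17, 1.87 and 1.38 CPM at day 5 and 3.42, 3.999, 4.93 and 4.59 at day 10. It rose 2.69-fold (log2 1.42 ± 0.40, SE, edgeR adjusted p = 0.0237). That call was lost without day 5 control replicate 1 or 6 or day 10 control replicate 4 or 5. It was also lost with replicate number as a block (edgeR adjusted p = 0.259). Its neighbour Col4a3 had few reads, 152 over all libraries, and did not pass (log2 1.56, 95% interval 0.08 to 3.04, edgeR adjusted p = 0.16). Col4a5 lay just outside the threshold. It was 53.6, 52.9, 63.7 and 32.6 CPM at day 5 and 118, 79.3, 96.7 and 79.5 at day 10, without overlap (log2 0.88 ± 0.28, SE, edgeR adjusted p = 0.0513).

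Of the multiplexins, Col15a1 rose. It was 30.1, 44.2, 25.4 and 13.2 CPM at day 5 and 84.8, 59.8, 87.2 and 63.1 at day 10 in control, a 2.62-fold rise without overlap (log2 1.39 ± 0.30, SE, edgeR adjusted p = 0.00586). Col18a1, the source of endostatin, was 58.4, 56.7, 32.2 and 19.8 at day 5 and 95.3, 83.7, 89.3 and 75.7 CPM at day 10. The groups of Col18a1 did not overlap, but its edgeR adjusted p was 0.0653 (log2 1.04 ± 0.35, SE).

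Col8a2, a chain of the network collagen of corneal endothelial membrane, was 1.75, 1.83, 1.52 and 0.436 CPM at day 5 and 12.2, 9.54, 4.93 and 5.57 at day 10 in control. All day 10 libraries were above all day 5 ones, a 5.83-fold rise (log2 2.54 ± 0.56, SE, edgeR adjusted p = 0.00618). Its partner Col8a1 was 67.2, 92.8, 22.6 and 11.5 CPM at day 5 and 48.5, 63.2, 36.6 and 38.2 at day 10, with full overlap (log2 -0.06, 95% interval -1.24 to 1.122, edgeR adjusted p = 0.962).

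Col6a5, a low member of the type VI family, was 2.15, 0.750, 0 and 0 CPM at day 5 and 16.4, 11.1, 9.12 and 7.78 at day 10 in control. It rose (log2 3.92 ± 1.03, SE, edgeR adjusted p = 0.0208). The size of that fold leans on day 5 libraries with no read. The call was lost without day 5 control replicate 2 or day 10 control replicate 2, and with no filter on low counts (edgeR adjusted p up to 0.0679). The other 4 tested type VI chains had log2 fold changes above 0 and none passed. Col6a1 was 20.99, 23.8, 10.6 and 5.96 CPM at day 5 and 30.5, 21.8, 30.6 and 21.6 at day 10 in control. Col6a3 was 31.4, 34.7, 16.04 and 8.72 at day 5 and 36.6, 26.3, 20.3 and 25.1 CPM at day 10. Both overlapped between days, with day 5 control replicate 6 lowest.

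Col23a1, a transmembrane collagen that is shed from the cell surface, was 5.49, 4.58, 7.13 and 7.27 CPM at day 5 and 9.80, 13, 7.17 and 10.97 at day 10. It rose 1.67-fold (log2 0.74 ± 0.23, SE, edgeR adjusted p = 0.039) with the lowest day 10 library inside the day 5 range. That call was lost without day 5 control replicate 1 or 2 or day 10 control replicate 2, 3 or 5. It was also lost with no filter on low counts, with only the compared libraries in the fit, and with replicate number as a block (edgeR adjusted p = 0.201). No FACIT collagen passed: 3 of the 7 tested were above 0 and the median log2 fold change was -0.24. Col16a1, a FACIT of fibroblasts and smooth muscle, was 45.1, 54.8, 41.3 and 44.5 CPM at day 5 and 52.8, 39.1, 67.3 and 49.9 at day 10, and Col20a1 was 10.0, 15.4, 11.6 and 23.8 at day 5 and 20.4, 16.7, 18.3 and 13.1. Both FACIT genes overlapped between days.

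Beside these changes, the fibroblast and meningeal list also moved between days in control. All 10 of its tested members had log2 fold changes above 0, with a median of 1.06, and 4 passed (Igf2, Igfbp4, Slc6a13 and Pdgfra). Pdgfra is also on the list of 6 oligodendrocyte precursor markers, where it was the 1 called member, so its rise is not particular to fibroblasts. Igf2 rose 12.4-fold and Slc6a13, a transporter of meningeal fibroblasts, 4.59-fold. Of the 11 endothelial markers 5 were above 0, with a median of -0.10, and 1 passed, Slco1a4. The pericyte list had 1 called member, Vtn, 4.45-fold higher. Smooth muscle markers went the other way, with 1 of 5 above 0, a median of -0.98 and Tagln past the threshold, 1.97-fold lower. Mal of the Schwann list rose, as did Sp7 of the cartilage and bone list (2.54-fold, edgeR adjusted p = 0.0412). Among microglia and macrophage markers Csf1r rose and Cd68 and Adgre1 fell. Of 7 markers each, 5 oligodendrocyte and 4 astrocyte genes rose and 3 neuronal genes fell. The part of these cells in the collagen changes was not tested.

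In exercise mice, day 10 against day 5, 3 collagens rose and 1 fell, which is 10.5% of the 38 tested, against 10.1% of all genes (5.17% higher and 4.9% lower). The share of collagens past the threshold was thus near the background. The count was 2 without day 5 exercise replicate 1, and 2 with only the libraries compared in the fit. The median log2 fold change was 0.54, against 0.01 for all genes, with 29 of 38 above 0, as were 50.6% of all genes. This comparison and the control one use different libraries.

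Col27a1 was 8.40, 9.755, 8.197 and 8.38 CPM in day 5 exercise and 17.1, 11.2, 21.7 and 18.6 at day 10. It rose 1.98-fold without overlap (log2 0.99 ± 0.19, SE, edgeR adjusted p = 0.00363). Col15a1 was 28.0, 18.8, 21.6 and 34.3 at day 5 and 46.8, 57.9, 85.1 and 95.5 CPM at day 10, a 2.77-fold rise without overlap (log2 1.47 ± 0.30, SE, edgeR adjusted p = 0.00549). Both genes passed in both wheel groups, and neither call was lost when any 1 library was left out.

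Col7a1 was 2.53, 5.19, 6.17 and 1.20 CPM in day 5 exercise and 5.87, 5.27, 18.9 and 14.1 at day 10. It rose 2.95-fold (log2 1.56 ± 0.45, SE, edgeR adjusted p = 0.0331), with 2 day 10 libraries inside the day 5 range. The call was lost without day 5 exercise replicate 1 or 12 or day 10 exercise replicate 18 or 19, and with only the compared libraries in the fit. Col11a1, a chain of type XI collagen that sets fibril width, was 42.8, 47.6, 46.9 and 27.9 at day 5 and 19.4, 17.3, 30.0 and 29.2 CPM at day 10. It fell by 0.78 on the log2 scale (SE 0.23, edgeR adjusted p = 0.0365). That call was lost without day 5 exercise replicate 1, 2 or 7 or day 10 exercise replicate 13 or 17, and with only the compared libraries in the fit. In control, Col11a1 was 39.4, 35.1, 31.4 and 29.3 at day 5 and 31.2, 20.7, 25.3 and 14.5 CPM at day 10 and did not pass (log2 -0.56, edgeR adjusted p = 0.12). Col12a1, a fibril-associated collagen of tendon and injured tissue, was 41.6, 28.3, 45.9 and 24.4 CPM in day 5 exercise and 20.96, 27.3, 53.6 and 33.2 at day 10, with overlap.

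Col2a1 was 6.86, 4.94, 7.91 and 4.79 CPM in day 5 exercise and 1.77, 4.49, 4.43 and 4.36 at day 10, without overlap, but its edgeR adjusted p was 0.187 (log2 -0.70, 95% interval -1.40 to -0.01). Cases where a gene passed in 1 wheel group only are not shown to differ, since the difference of the day effect between wheel groups is the same term as the interaction given below.

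The other collagens named here did not pass between days in exercise mice. Col4a2 was 24.01, 29.6, 42.6 and 25.9 CPM at day 5 and 31.9, 24.9, 75.02 and 65.7 at day 10. Col4a5 was 45.1, 42.6, 37.2 and 37.9 CPM at day 5 and 34.7, 39.6, 107 and 79.6 at day 10. In both, replicates 18 and 19 lay above every day 5 library and replicate 17 inside or below their range. Col18a1 was 29.2, 33.5, 53.1 and 28.8 CPM at day 5 and 40.98, 24.5, 83 and 66.3 at day 10. Col6a1 was 24.3, 17.9, 33.6 and 8.93 CPM at day 5 and 17.04, 17.4, 50.3 and 43.1 at day 10. Col6a3 was 31.4, 17.6, 31.1 and 20.9 CPM at day 5 and 21.3, 15.1, 95.3 and 61.7 at day 10. For these 3 genes replicate 18 was highest and at least 1 of replicates 13 and 17 lay inside the day 5 range or below it. Col8a1 was 50.5, 27.4, 80.4 and 18.97 CPM at day 5 and 36.05, 82.5, 111.5 and 92.6 at day 10, and Col8a2 was 1.90, 0.887, 3.57 and 2.58 CPM at day 5, both overlapping the other day. Col16a1 was 43.5, 44.1, 41.95 and 38.4 CPM at day 5 and 30.4, 44.4, 72.6 and 47.9 at day 10. Col20a1 was 14.1, 21.4, 19.4 and 13.7 CPM at day 5 and 12.4, 22.5, 31.3 and 25.4 at day 10. Both FACIT genes overlapped between days, with replicate 18 highest.

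Among the low members, Col23a1 was 6.14, 7.86, 6.27 and 6.17 CPM at day 5 and 8.85, 7.51, 8.78 and 5.38 at day 10, with overlap. Col6a5 was 0.0903, 0.380, 2.70 and 0 CPM at day 5 and 4.28, 0.781, 2.57 and 8.52 at day 10. Col4a4 was 1.99, 2.03, 0.964 and 0.8287 CPM in day 5 exercise. No order between days held for all libraries of these genes. Col28a1 was 0.716, 1.33, 0 and 0.0727 CPM in day 5 control and 0.722, 0.127, 0.964 and 0.0921 in day 5 exercise. Col7a1 in day 5 control was 4.45, 4.998, 3.83 and 2.76 CPM, and Col12a1 was 31.1, 37.3, 22.99 and 19.3 in day 5 control and 25.7, 21.8, 19.4 and 26.5 in day 10 control. Col17a1 was 1.29, 0.0909, 1.30 and 0.246 CPM in day 10 control and 0.931, 0.0976, 0.355 and 0 in day 10 exercise. Each of these genes had overlapping groups. In exercise mice 7 of 10 fibroblast and meningeal markers were above 0 between days. Of these 2 rose, Mgp and Pdgfra, the latter also an oligodendrocyte precursor marker. Of 11 endothelial markers 10 were below 0, with 4 that fell (Emcn, Esam, Pecam1 and Tek). Tagln of the smooth muscle list fell, and on the pericyte list Vtn rose and Anpep fell. Egr2 of the Schwann list rose. Among microglia and macrophage markers Aif1, Csf1r and Ptprc rose and Cd68 fell. Of 7 markers each, 3 oligodendrocyte and 2 astrocyte genes rose and 3 neuronal genes fell. The part of these markers in the collagen values was not tested.

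**Figure D3:**
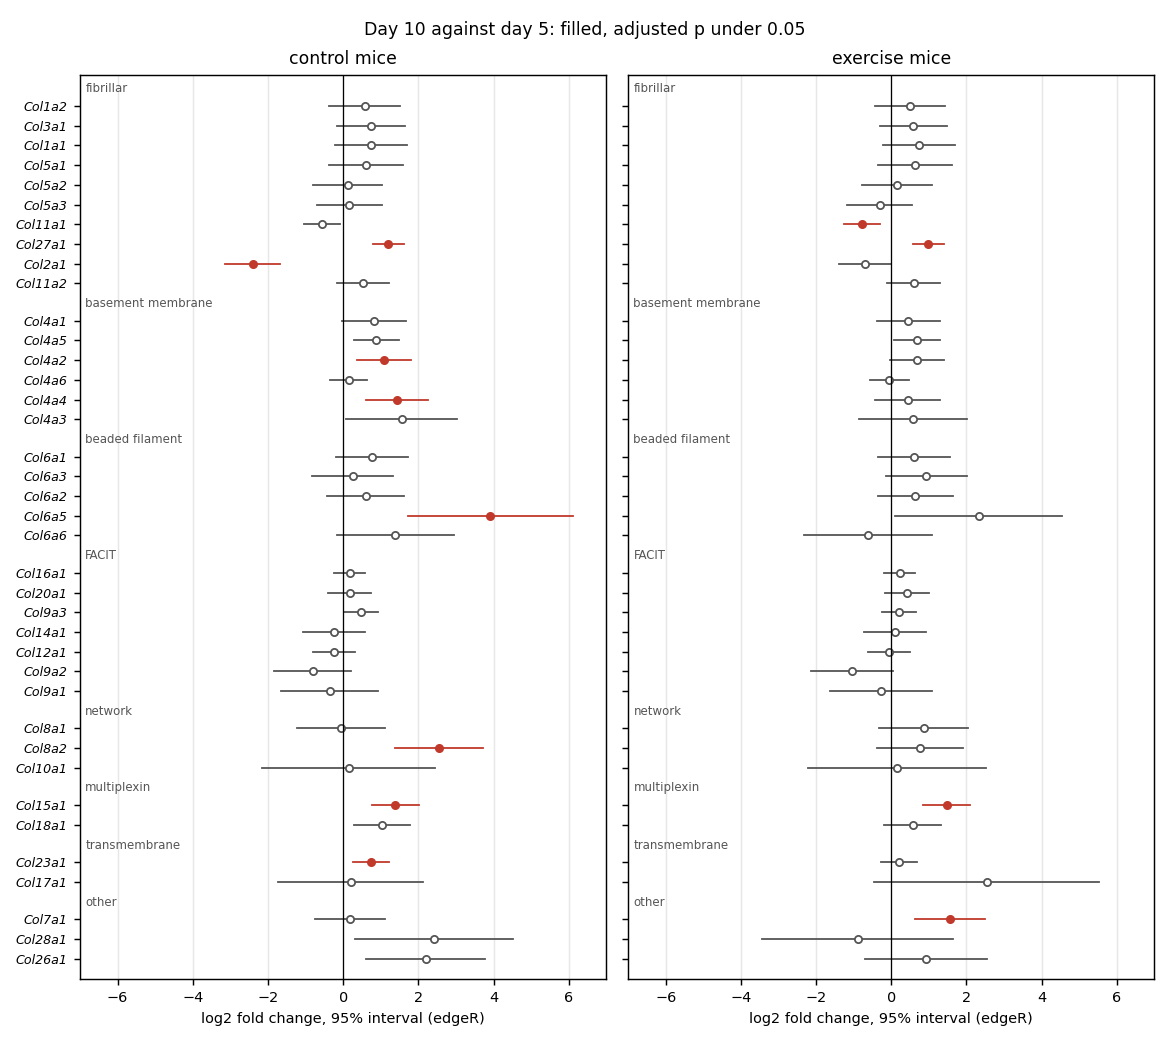
Log2 fold change of day 10 against day 5 with its 95% interval for the 38 tested collagens, in control mice (left) and exercise mice (right), ordered by class. Filled red points passed an adjusted p of 0.05, 8 genes in control and 4 in exercise, and intervals of the abundant fibrillar chains span 0 in both.

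**Figure D4:**
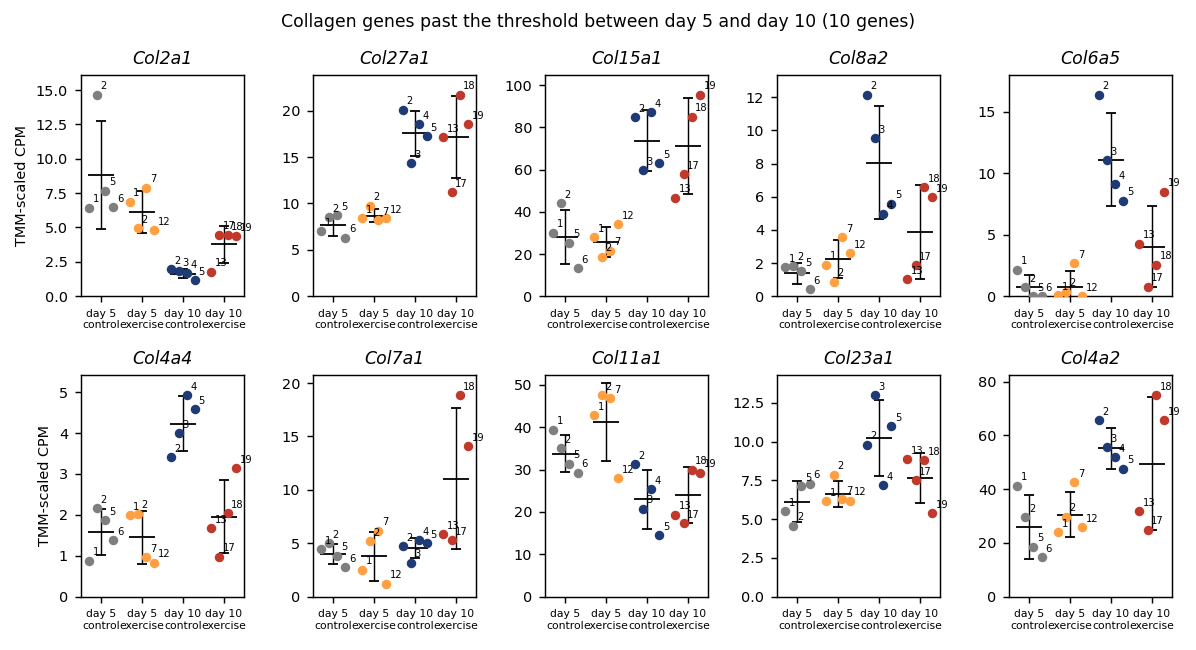
TMM-scaled CPM in each of the 16 libraries for the 10 collagens that passed between days in control or exercise mice, with replicate numbers, the group mean as a bar and the SD as whiskers. Col27a1 and Col15a1 separate the days in both wheel groups, Col2a1 has its lowest group mean in day 10 control, and Col7a1 is highest in day 10 exercise replicates 18 and 19.

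The second comparison was exercise against control at each day, which asks whether the wheel altered transcripts in the lesion. It uses the same libraries as the day comparisons. At day 5, 0 of 38 collagens passed in edgeR's quasi-likelihood test, as did 0% of all genes tested, and limma-voom and DESeq2 also called 0 collagens. An unadjusted p under 0.05 was reached by 1 collagen, against 10% of all genes. The median log2 fold change was 0.10 against 0.01 for all genes, with 23 of 38 above 0, as were 51.6% of all genes.

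At day 5 the collagen with the smallest p was Col17a1, a transmembrane collagen of skin, at 0.159, 1.67, 0.535 and 0.218 CPM in control and 0, 0.253, 0 and 0 in exercise. It has 83 reads over all libraries, and its log2 fold change of -3.38 (95% interval -6.18 to -0.57, edgeR adjusted p = 0.433) rests on few reads. Col2a1 came next (log2 -0.52, 95% interval -1.19 to 0.15, edgeR adjusted p = 0.605), with overlapping libraries. For Col1a2 the day 5 difference was 0.08 on the log2 scale, with a 95% interval of -0.86 to 1.02, and for Col3a1 it was 0.21, with an interval of -0.69 to 1.102. Without day 5 control replicate 6, the Col1a2 difference was -0.21.

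At day 10, 0 of 38 collagens passed in edgeR's quasi-likelihood test, against 0.192% of all genes, and limma-voom and DESeq2 on the same 16 libraries also called 0. An unadjusted p under 0.05 was reached by 2 collagens that were higher and 2 that were lower, against 7.25% and 5.56% of all genes (12.8% in all). The median log2 fold change was -0.06 against 0.01, with 16 of 38 above 0, as were 52.1% of all genes. Exercise and control libraries did not overlap for 0 collagens that were higher and 2 that were lower (Col4a4 and Col6a6), against 3.3% and 2.58% of all genes.

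Col2a1 was nearest to the threshold, with control at 1.97, 1.82, 1.68 and 1.15 CPM and exercise at 1.77, 4.49, 4.43 and 4.36. Exercise replicate 13 lay among the controls and the other 3 above all of them (log2 1.18, 95% interval 0.44 to 1.92, edgeR adjusted p = 0.182). Col7a1 was 4.71, 3.18, 5.31 and 4.99 CPM in control and 5.87, 5.27, 18.9 and 14.1 in exercise, so replicates 18 and 19 carried most of the difference (log2 1.28, 95% interval 0.36 to 2.20, edgeR adjusted p = 0.235). The authors' deposited table for day 10, which does not list exercise replicate 17, calls Col7a1 (log2 fold change 1.499, SE 0.39, adjusted p 0.0159) and no other collagen. DESeq2 run here on those 7 libraries gave log2 1.499 and an adjusted p of 0.0141, whereas edgeR without replicate 17 gave 1.51 and an adjusted p of 0.194. For day 5, the authors' deposited table gives an adjusted p for 25 of the 43 collagens, none below 0.445. Col17a1 has an unadjusted p of 0.015 there (authors' DESeq2) and no adjusted p.

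Lower values in exercise were seen for low members, none of which passed. Col4a4 was 3.42, 3.999, 4.93 and 4.59 CPM in control and 1.68, 0.976, 2.04 and 3.15 in exercise, without overlap (log2 -1.11, 95% interval -1.93 to -0.28, edgeR adjusted p = 0.25). Col28a1, a von Willebrand domain collagen known from peripheral nerve, was 5.54, 0, 3.72 and 2.13 CPM in control and 0.279, 0.0976, 0.532 and 0.102 in exercise. Control replicate 3, with no Col28a1 read, lay below all exercise libraries (log2 -3.42, 95% interval -5.73 to -1.10, edgeR adjusted p = 0.214). Col8a2 was 12.2, 9.54, 4.93 and 5.57 in control and 1.03, 1.85, 6.56 and 5.99 CPM in exercise, with overlap (log2 -1.06, edgeR adjusted p = 0.404).

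By class, all 6 basement membrane chains had day 10 values below 0 in exercise, with a median of -0.35 and none past the threshold, and the multiplexins had 2 of 2 below 0. These directions did not all hold in the authors' day 10 table, which does not list exercise replicate 17. There the log2 fold changes of Col4a2, Col4a3 and Col15a1 were 0.05, 0.15 and 0.03. The abundant chains share their library order, so such counts are not sums of independent genes. In the edgeR fit of all 16 libraries, fibrillar chains were above 0 in 8 of 10, with a median of 0.06. In the same comparison 1 of 14 tested laminin, nidogen, perlecan and agrin genes, the partners of type IV collagen, was above 0, with a median of -0.18 and none past the threshold. Of the endothelial markers 1 of 11 was above 0 (median -0.77, with Slco1a4 past the threshold), and of the fibroblast and meningeal markers 0 of 10 (median -0.61, with Igf2 and Igfbp4 past it). Pericyte markers had 2 of 8 above 0, with Vtn past the threshold, and astrocyte and oligodendrocyte markers had 1 of 7 above 0 each, with none past it. Microglia and macrophage markers went the other way, with 7 of 7 above 0 (median 0.31) and Itgam past the threshold, 2.03-fold higher. The part of these cell types in the collagen values was not tested.

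For Col1a2 the day 10 difference between exercise and control was 0.01 on the log2 scale, with a 95% interval of -0.93 to 0.95. It ran from -0.34 without exercise replicate 18 to 0.25 without exercise replicate 13. Col3a1 differed by 0.04 (95% interval -0.85 to 0.94). The Col1a2 mean was 1555 ± 218 CPM over the 4 control libraries and 1564 ± 926 over the 4 exercise libraries (SD), so near-equal means stood on very unequal spreads.

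Averaged over both days, 0 of 38 collagens passed between exercise and control in edgeR's test (0.146% of all genes), with 4 at an unadjusted p under 0.05 against 13.6% of all genes. All 10 tested fibrillar chains were above 0 in this average, with a median log2 fold change of 0.13 and none past the threshold. The difference of the exercise effect between days, which equals the difference of the day effect between wheel groups, passed for 0 of 38 collagens and 0% of all genes in edgeR's test. It reached an unadjusted p under 0.05 for 4 collagens, against 9.11% of all genes. The smallest p was that of Col2a1 (log2 1.70, 95% interval 0.70 to 2.70, edgeR adjusted p = 0.423), followed by Col8a2 (log2 -1.77, edgeR adjusted p = 0.521). The day changes of these genes are therefore not shown to differ between wheel groups.

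**Figure D5:**
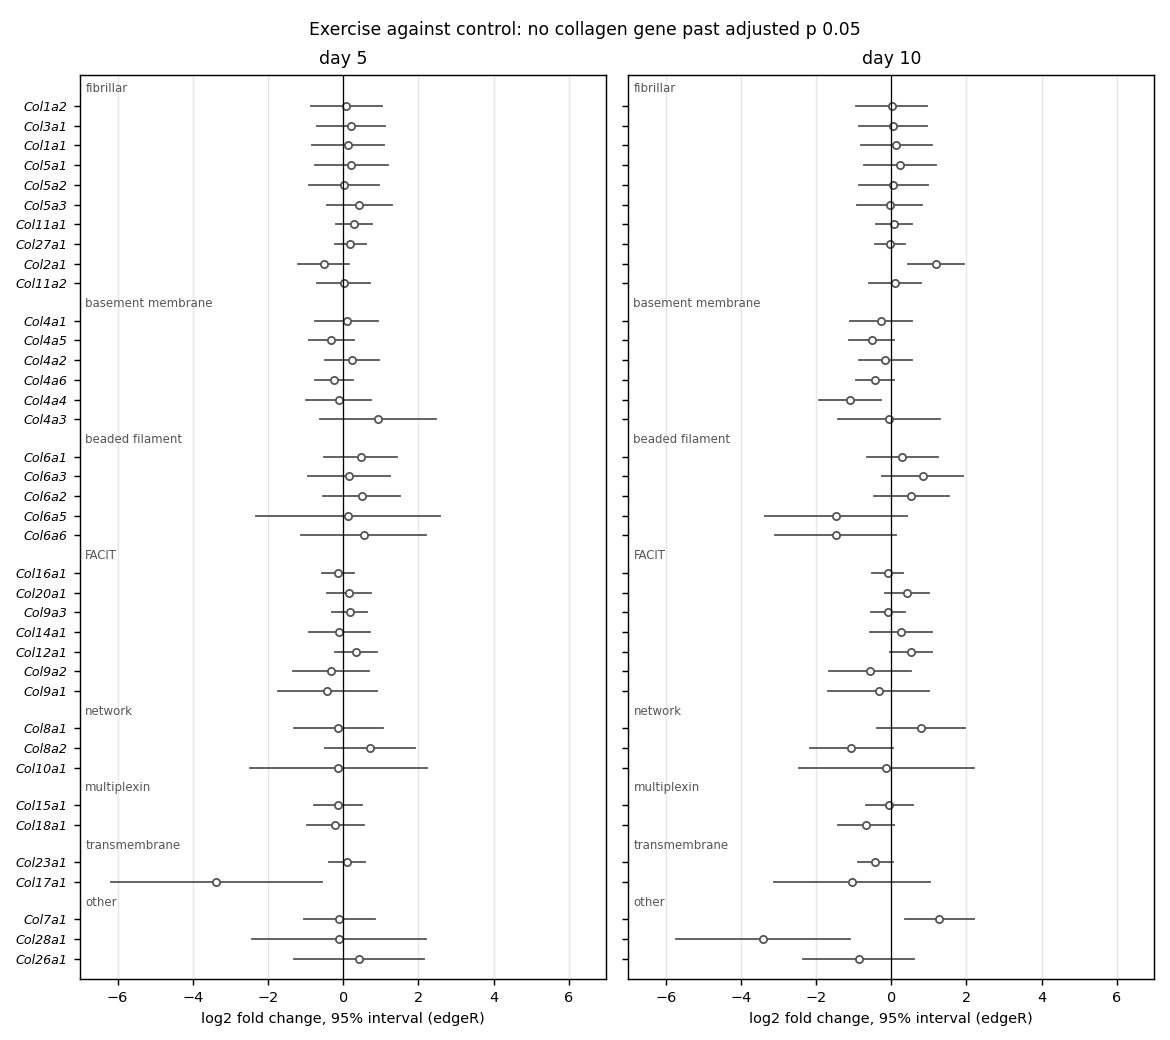
Log2 fold change of exercise against control with its 95% interval for the 38 tested collagens at day 5 (left) and day 10 (right), ordered by class. Open points did not pass an adjusted p of 0.05, which is all of them, and intervals of Col1a2 and Col3a1 hold 0 at both days.

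Among the genes that make, cut and bind collagen, those that passed between days went in both directions. The shares of all genes tested to set beside the counts below are 5.66% higher and 6.64% lower in control (12.3% in all). In exercise they are 5.17% higher and 4.9% lower (10.1% in all). Of 15 genes for enzymes that hydroxylate or glycosylate collagen chains and for their partners, all tested, 3 rose and 3 fell in control from day 5 to day 10. The prolyl 3-hydroxylase family members P3h2, P3h3 and P3h4 rose (log2 0.79, 0.93 and 0.70, edgeR adjusted p 0.0187, 0.000458 and 0.0324). The prolyl 4-hydroxylase subunit P4hb, the lysyl hydroxylase Plod1 and the proline isomerase Ppib fell by 0.53, 0.47 and 0.54 on the log2 scale (edgeR adjusted p 0.00638, 0.0374 and 0.0267). In exercise mice P3h3 was the 1 member of this list to rise, by 0.56 (edgeR adjusted p = 0.0179), and none fell.

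Of 9 folding and export genes, 1 fell in control, Tmem38b, a channel of the endoplasmic reticulum (log2 -0.67, edgeR adjusted p = 0.00505), and it fell in exercise as well (log2 -0.60, edgeR adjusted p = 0.0118). Serpinh1, the collagen chaperone HSP47, was split like the abundant collagens in these 2 groups, with 192, 203, 111 and 70.9 CPM in day 5 control and 97.3, 91.1, 232 and 188 in day 10 exercise. Serpinh1 did not pass between days (log2 0.32 in control and -0.01 in exercise). Of 5 tested propeptide-cleaving genes the procollagen protease Adamts2 rose 2.17-fold in control (edgeR adjusted p = 0.0431). Among 6 cross-linking genes none passed in control and Tgm2 fell in exercise by 0.91 (edgeR adjusted p = 0.0139). Lox, the lysyl oxidase that cross-links fibrils, had log2 0.81 in control and 0.74 in exercise without passing.

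Of 11 fibril-binding partners, 2 rose and 2 fell in control. Fmod (fibromodulin, log2 1.23, edgeR adjusted p = 0.0158) and Sparc (osteonectin, log2 0.64, edgeR adjusted p = 0.00315) rose. Fn1 (fibronectin) fell by 1.14 on the log2 scale (edgeR adjusted p = 0.0221) and Thbs1 (thrombospondin) by 2.77 (edgeR adjusted p = 0.00236). In exercise Sparc and Postn (periostin) rose, by 0.75 and 2.05 (edgeR adjusted p 0.00127 and 0.0359), and Thbs1 fell by 2.62 (edgeR adjusted p = 0.00421). Dcn and Lum, which are in the fibroblast list too, had log2 0.92 and 0.69 in control without passing.

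Of 9 tested receptors and uptake genes, the collagen III receptor Adgrg1 and the receptor kinase Ddr1 rose in control (log2 0.87 and 0.85, edgeR adjusted p 0.0076 and 0.00753), and the integrin chain Itgb1 fell by 0.49 (edgeR adjusted p = 0.0275). In exercise Mrc2, which takes up collagen for breakdown, rose by 1.47 (edgeR adjusted p = 0.000189). Of 14 tested basement membrane partners 13 were above 0 between days in control and 2 rose, the laminin chain Lamc3 and the linker Nid1 (log2 2.47 and 1.63, edgeR adjusted p 0.00422 and 0.00771). None of these 7 pathway lists had a member past the threshold between exercise and control at either day. Of all genes tested, 0% passed at day 5 and 0.192% at day 10.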

How the data were processed

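Per the labels' protocols, RNA from microdissected lesions was amplified with REPLI-g, selected for poly(A) and sequenced as strand-specific single reads. Amplification from little input can widen the spread between libraries. Per the submitters' processing notes, FastQC 0.11.4, TopHat2 2.0.10, Bowtie 1.1.2, featureCounts 1.5.0-p1 and DESeq2 1.12.4 were used with GRCm38. The authors deposited raw counts per Ensembl gene, with the gene length, with strand-specific counting (per the file headers). The authors' deposited comparison tables hold log2 fold changes with SE, p-values and adjusted p-values. Symbols came from the reference annotation for 45143 of 46078 IDs.

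Counts of all 16 libraries were fitted with edgeR 4.0.16 in R 4.3.3 (TMM, filterByExpr with a minimum count of 10 and total of 15, robust quasi-likelihood, 1 mean per group, 12 residual degrees of freedom, common BCV 0.236), adjusting over 15096 genes at a threshold of 0.05. The fit was tested on simulated data first. Alternatives used limma 3.58.1 (voom), DESeq2 1.42.0, other scaling and filters, and libraries left out. Library-by-library values were given for collagens past the threshold, the 2 highest tested genes per kilobase in each class, and the 2 smallest p in each comparison; a few others were chosen after their values were seen. The collagen genes and all lists were chosen with earlier results of these data known.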

Additional observations from a re-analysis of the deposited data

Results flagged for a closer look

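In 92 groups of 4 libraries (23 collagens described library by library), 7 had 1 library whose gap to its nearest neighbour was large for the group's range by Dixon's 95% criterion. Chance alone flags about 1 group in 20.

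Col2a1 was set apart in 2 groups: day 5 control replicate 2 stood at 14.66 CPM with the others at 6.44 to 7.66, and day 10 exercise replicate 13 at 1.77 with the others at 4.36 to 4.49. Leaving out any 1 library kept the fall of Col2a1 between days in control past the threshold. Col1a2 was 1880 CPM in day 10 control replicate 2 against 1427 to 1471 in the others. Day 5 exercise replicate 2 held the high value of its group for Col27a1 (9.755 CPM against 8.197 to 8.40), Col23a1 (7.855 against 6.14 to 6.27) and Col17a1 (0.2534 against 0 in the other 3). Col6a5 was 2.7 CPM in day 5 exercise replicate 7 and at most 0.380 in the others.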

How the results depend on the processing

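For exercise against control at day 5, at day 10, averaged over days, and for the difference between days, edgeR called 0 collagens as reported and 0 under each of these settings (other size factors, no filter on low counts, limma-voom, DESeq2 and each library left out). At day 5 and at day 10 the count was also 0 with only the libraries compared, a setting that was not run for the average and the difference, which use all libraries. DESeq2 on the 7 libraries of the authors' day 10 table, an alternative chosen after seeing the data, called 1, Col7a1 (log2 1.499). Between days in control, 8 collagens were called as reported and 5 with no filter on low counts, which tests more genes. Leaving out 1 library gave 5 to 7, with 5 without day 5 control replicate 2, day 10 control replicate 2 or day 10 control replicate 5. In exercise mice, 4 were called as reported, 2 with only the libraries compared, and 2 to 4 with 1 library left out (2 without day 5 exercise replicate 1). The cause was not tested. Whether replicate numbers pair the samples was not settled. Correlations of deviations from the group means were 0.069, -0.029, 0.056 and 0.017 in the same-numbered pairs examined. Differently numbered pairs were not examined, so these values have no reference. With a replicate block, 7 collagens were called between days in control, 6 of them also called as reported. The 2 lost were Col4a4 (adjusted p 0.259) and Col23a1 (adjusted p 0.201). The Col1a2 difference between exercise and control changed sign under some settings without passing: at day 10 it was -0.01 with no filter (-0.008) and -0.20 with limma-voom, and -0.34 to 0.25 with 1 library left out; at day 5 it was -0.49 with the replicate block and -0.21 to 0.31 with 1 library left out. Calls held under every alternative for Col2a1, Col27a1, Col15a1 and Col8a2 in control and for Col27a1 and Col15a1 in exercise. Depth limits the lowest collagens, such as Col17a1 with 83 reads and Col4a3 with 152 over 16 libraries.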

Other observations

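Chains that assemble into the same collagen were not at equal RNA levels. Col1a2 was 9.15 to 14.5 times Col1a1 in CPM over the 16 libraries, with a median of 11.1, and 4.95 to 7.85 times per kilobase of the deposited gene length, with a median of 6.00. Per kilobase of the longest coding transcript (5348 and 5930 bases) it was 10.15 to 16.1 times, with a median of 12.3, so the size of the ratio depends on the length used. Type I collagen is usually built with more Col1a1 than Col1a2 chains. In the annotation's longest coding transcripts GC content is 58.9% for Col1a1 and 55.7% for Col1a2, and the part of base composition, or of the RNA amplification used for all libraries, in the ratio was not tested. Col4a1 was 2.94 to 5.07 times Col4a2 in CPM (median 3.58), with GC content of 57.7% and 60.6%.

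The ratio of the type VIII chains moved most among the pairs examined. Col8a1 was on average 32.6 times Col8a2 in CPM in day 5 control, 21.8 times in day 5 exercise, 6.22 times in day 10 control and 28.0 times in day 10 exercise. The ratio was not tested, and it follows from the Col8a2 and Col8a1 values given above.

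Set against day 10 control, fibroblast-linked genes did not all stand where the abundant collagens did. In day 10 exercise replicates 18 and 19, Col1a2 was above every day 10 control library, at 2550 and 2151 CPM. Igf2 was 285 and 299 there against 1182 to 1802 CPM in control, and Slc6a13 was 2.13 and 1.32 against 3.11 to 5.27. Dcn, at 268 and 239, lay within its control range of 207 to 327 CPM. Within day 10 exercise, these genes were lower in replicates 13 and 17, as the collagens were. Igf2 was 141 and 37.0, Slc6a13 0.279 and 0.0976 and Dcn 97.0 and 97.2 CPM in those 2 libraries. Igf2, Slc6a13 and Dcn are a selection from the fibroblast and meningeal list. On that list Islr and Mgp reached above control, at 10.1 and 51.5 CPM in their highest day 10 exercise library. Their highest day 10 control values were 6.45 and 43.4 CPM. By group, 0 of the 10 tested members of the list had a log2 fold change above 0 at day 10. The part of fibroblast content in these values was not tested. Postn, at 317 and 230 CPM in replicates 18 and 19 against 62.6 to 141 in control, was high where Col1a2 was high. The low collagens Col6a5 and Col8a2 had their highest values in day 10 control replicate 2, at 16.4 and 12.2 CPM, where Igf2 was 1802. That library was also the highest of its group for 16 of the 21 collagens with a mean of at least 10 CPM, against 21.9% of all genes at that level.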
